A study of Mus musculus with 16 samples.

Results

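The cytosolic heat shock proteins were examined as 10 mouse genes, taken as a named list: Hspa1a, Hspa1b, Hspa4, Hspa8, Hsp90aa1, Hsp90ab1, Hspb1, Hsph1, Dnaja1 and Hsf1. A probe set, the group of short probes that reads out one transcript on the array, was taken where the platform annotation gives one of these genes, by current or former symbol, as its only gene. This found 24 probe sets of 45101 on the array, for 8 of the 10 genes. Hsp90ab1 and Hsf1 had no probe set named for them alone in the annotation used here and were not analysed here. The 16 arrays all carried total RNA of E14tg2a, a mouse embryonic stem cell line, from a single preparation. Each of 8 amplified arrays started from a dilution to 10 pg, in the range of one cell, whose cDNA went through PCR by a method named V1V3. Each of 8 nonamplified arrays started from 5 µg and had no PCR step. The question is how far amplification from so little RNA changes what the array reports; the input amount and the PCR differ together and cannot be told apart. The arrays are technical replicates, so every p-value here measures the spread between technical replicates, and no difference below is a response of living cells.

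Heat shock proteins are chaperones: they bind unfolded protein, keep it from aggregating and help it fold. The Hsp70 proteins do so in cycles of ATP binding and hydrolysis, in which J proteins such as Dnaja1 deliver clients and start hydrolysis and the Hsp110 proteins Hspa4 and Hsph1 exchange the nucleotide. Hsp90 acts later, on kinases, steroid receptors and other clients passed on from Hsp70, and small heat shock proteins such as Hspb1 hold unfolded protein without using ATP. Hspa8 (Hsc70) is made constitutively and is abundant in proliferating cells, whereas Hspa1a and Hspa1b are the forms that stress induces through the transcription factor Hsf1.

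Hsf1 binds heat shock elements, inverted repeats of the pentamer nGAAn, and windows around the start sites were searched for matches to them. The windows run from 250 bases before to 50 bases after each start site, 5′ to 3′, from RefSeq on GRCm38.p6, and 6 of the 10 genes had at least 1 window. Hsp90aa1 was without one. Only windows with a match are printed below. Capitals mark each match to GAANNTTC or TTCNNGAA, which are the 2-unit forms of the element. Each form is its own reverse complement, so both strands are covered, and matches may overlap.
Hspa1a, chr17:34972107-34972406, minus strand: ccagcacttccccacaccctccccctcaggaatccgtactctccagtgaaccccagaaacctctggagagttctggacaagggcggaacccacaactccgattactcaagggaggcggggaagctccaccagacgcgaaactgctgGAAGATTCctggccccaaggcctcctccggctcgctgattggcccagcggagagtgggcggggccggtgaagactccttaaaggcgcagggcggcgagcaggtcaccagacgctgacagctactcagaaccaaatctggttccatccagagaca
Hspa1b, chr17:34959189-34959488, minus strand: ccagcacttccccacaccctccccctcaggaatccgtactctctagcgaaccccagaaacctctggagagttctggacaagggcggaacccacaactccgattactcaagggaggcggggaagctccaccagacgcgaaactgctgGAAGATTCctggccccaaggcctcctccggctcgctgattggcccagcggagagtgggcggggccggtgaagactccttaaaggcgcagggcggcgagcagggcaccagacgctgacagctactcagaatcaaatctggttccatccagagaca
Hsph1, chr5:149636287-149636586, minus strand: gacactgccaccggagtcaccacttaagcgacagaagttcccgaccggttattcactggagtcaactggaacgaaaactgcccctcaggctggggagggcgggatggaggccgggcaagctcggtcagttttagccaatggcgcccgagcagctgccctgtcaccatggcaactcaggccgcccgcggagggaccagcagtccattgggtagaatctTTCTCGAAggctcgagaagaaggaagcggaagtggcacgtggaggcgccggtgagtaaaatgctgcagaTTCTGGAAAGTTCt
Hspb1, chr5:135887669-135887968, plus strand: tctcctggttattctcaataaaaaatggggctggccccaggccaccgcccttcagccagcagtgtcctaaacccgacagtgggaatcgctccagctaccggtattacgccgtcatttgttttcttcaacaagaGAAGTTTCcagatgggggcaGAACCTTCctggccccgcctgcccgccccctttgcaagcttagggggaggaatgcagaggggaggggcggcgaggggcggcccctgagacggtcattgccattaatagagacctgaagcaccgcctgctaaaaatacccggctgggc
A match stood in 6 of the 9 windows of these genes, against 15.1% of all 32851 windows. The windows are not independent, since those of Hsph1 overlap and hold the same matches. Hspa4 had none, and Dnaja1 had a match in 1 of its 3 windows. The overlapping matches of Hsph1, which lie after the start site, form the longer element TTCNNGAANNTTC, present in 0.603% of all windows (either order, GAANNTTCNNGAA included). A match is a description of the letters and not a binding site, and since all arrays carried the same RNA it has no bearing on the comparison below. The windows of Hspa1a and Hspa1b were identical at 296 of 300 positions. These neighbouring genes on chromosome 17 are near copies, so signal given to Hspa1b may come from Hspa1a and is uncertain between them.

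Embryonic stem cell identity was checked first. All 8 stem cell markers, Pou5f1, Sox2, Nanog, Zfp42, Esrrb, Dppa5a, Tdgf1 and Utf1, lay above the filter described next. Their summed intensity was 38074 to 40746 on amplified arrays and 29004 to 30470 on nonamplified arrays. Single markers moved in both directions within this sum. Nanog averaged 276 on amplified and 1776 on nonamplified arrays, and Utf1 averaged 8761 and 1814. On amplified arrays the sums were 189.6 to 321 for 7 fibroblast feeder markers, 82.4 to 290 for 3 blood cell markers and 292 to 325 for 5 trophoblast and endoderm markers, and on nonamplified arrays they were 244 to 319, 156 to 227 and 132 to 191. Gata6 was the largest part of the trophoblast and endoderm sums, with a mean of 229 on amplified and 73.2 on nonamplified arrays. Under the filter were Col3a1, Thy1, Lum, Ptprc, Cdx2, Gata4 and Afp. No marker sum was related to the results below, so the part of other cells was not tested. Median intensity over the array was 33.9 to 36.7 for amplified and 49.7 to 53.8 for nonamplified arrays, and 6.77% to 8.36% of probe sets on amplified and 2.08% to 3.22% on nonamplified arrays were at the lowest value of 1.

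Of the 24 probe sets, 22 for 7 genes had a mean intensity over the 16 arrays above 38.5, the 40th percentile of all probe sets, and were tested. Fold changes are differences of log2(intensity + 16), amplified minus nonamplified, which understates the change of dim probe sets, and a probe set is called at a limma adjusted p under 0.05 over all 27022 tested probe sets. Among the 22, 17 were called (77.3%), against 58.0% over all tested probe sets. Of these, 7 were higher and 10 lower, and 5 did not pass. Over all tested probe sets 24.7% were higher and 33.4% lower. The median log2 fold change was −0.40 for the 22 and −0.19 for all tested probe sets. Both groups were without overlap for 4 of the 22 on the higher side and 10 on the lower side, where the whole table gives 15.1% and 19.5%, together 34.6%. At least 2-fold and called were 1 higher and 7 lower, against 13.0% and 23.4% of the table. The count of called probe sets was 16 under quantile normalization, 15 with arrays centred on their medians and 13 when scaled on the hybridization controls. Over all 27022 tested probe sets these settings called 16280, 16287 and 15765. The excess over the table thus depends on the scaling. The count of higher probe sets was 2 under quantile normalization and 2 when scaled on the hybridization controls, so the direction of small changes depends on the scaling. In 4 of the 7 genes, Hsp90aa1, Hspa8, Hspa4 and Dnaja1, one probe set was called higher and another lower, against 19.8% of the 5640 genes with at least 2 tested probe sets. Under quantile normalization and scaled on the hybridization controls this held for Hsp90aa1 and Hspa4 alone. The higher call of Hsp90aa1 was then 1433251_at alone, which passed the filter through its amplified values and so had to differ. Of the 17 calls, 3 (Hsp90aa1 1433251_at, Hspa1b 1427126_at and Hspa4 1416147_at) are of probe sets whose mean in 1 group was under the filter, so that they had to differ. The same 3 are among the probe sets without overlap and among those called at 2-fold or more, where 1433251_at is the only higher one.

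**Figure D1:**
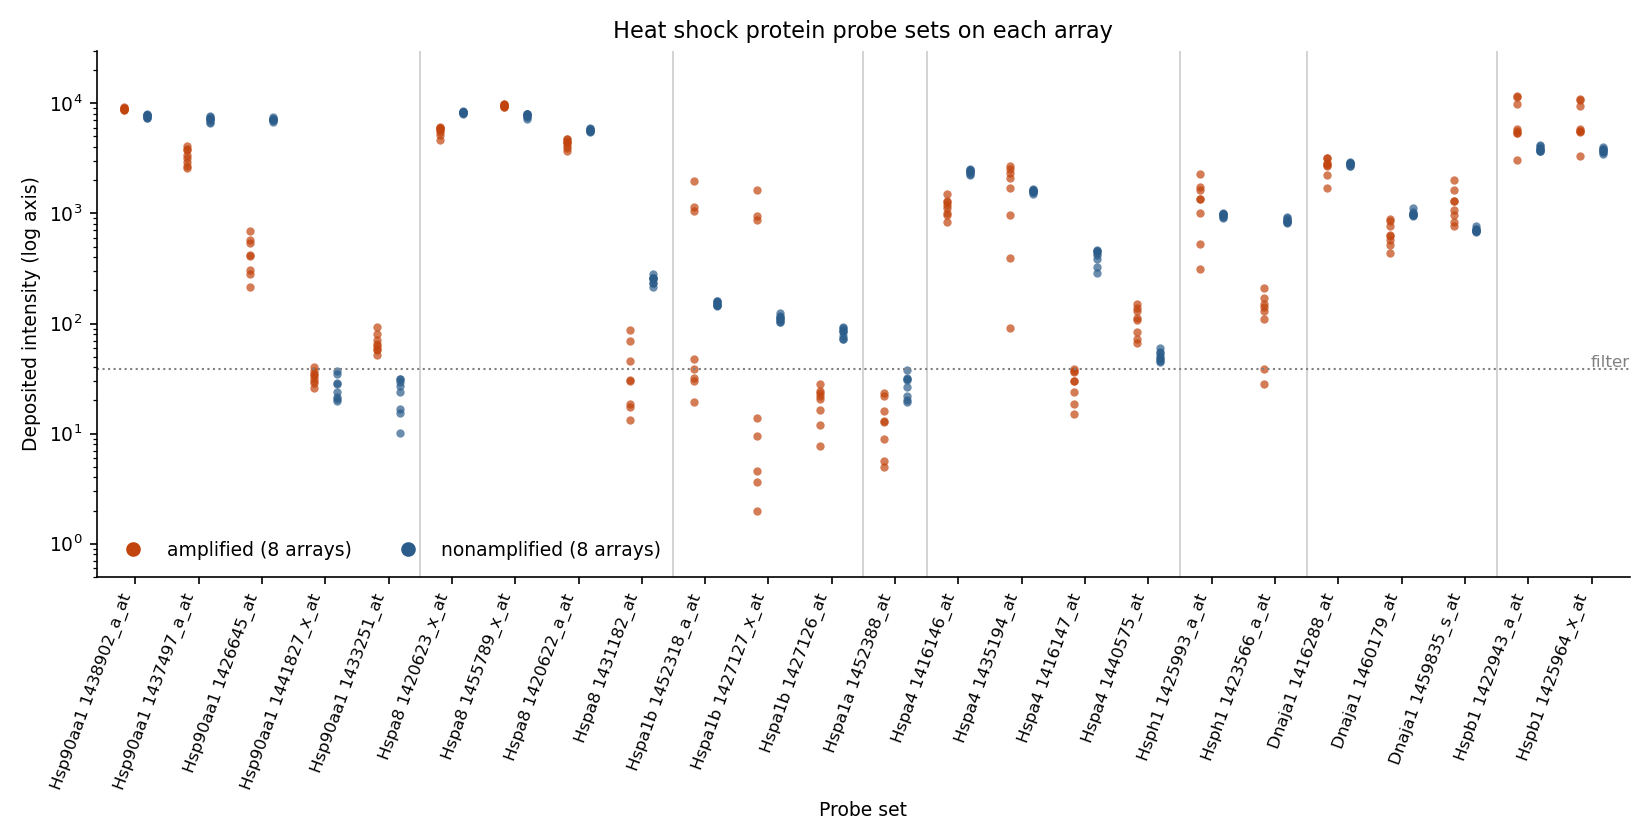
Deposited intensity (log axis) of the 24 heat shock protein probe sets, with a point for each of 8 amplified arrays (left, orange) and 8 nonamplified arrays (right, blue); the dotted line is the filter at 38.5. Nonamplified points lie close together, whereas amplified points of Hspa1b split into 3 arrays above and 5 arrays below the nonamplified ones.

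Hsp90aa1, the stress-inducible cytosolic Hsp90, gave a different answer at each of its probe sets. At 1438902_a_at, the brightest without amplification, intensity was 8632 to 9202 on amplified arrays with a median of 8895, and 7386 to 7957 on nonamplified arrays with a median of 7696. All 8 amplified arrays were above all nonamplified ones, by a log2 fold change of 0.22 (limma, SE 0.059, adjusted p = 0.00486), which was −0.38 under quantile normalization and −0.21 when scaled on the hybridization controls. This probe set was also the steadiest heat shock protein measurement after amplification, with an SD of 0.030 on the log2 scale. At 1437497_a_at the amplified arrays read 2597 to 4053 (median 3295) and the nonamplified arrays 6649 to 7704 (median 7245). The amplified arrays all lay lower, with a log2 fold change of −1.13 (limma, SE 0.10, adjusted p = 4.67e-08). At 1426645_at the amplified arrays read 214 to 687 (median 414), against 6760 to 7450 (median 7121) on nonamplified arrays. This was the largest decrease among the 22 probe sets, with a log2 fold change of −4.09 (limma, SE 0.19, adjusted p = 1.44e-11) and a mean 16.6-fold lower. At the dim 1433251_at, amplified arrays read 52.3 to 93.5 (median 64) and nonamplified arrays 10.2 to 31.5 (median 25.4), a log2 fold change of 1.11 (limma, SE 0.14, adjusted p = 3.76e-06). It passed the filter through its amplified values, and so had to differ. The remaining probe set, 1441827_x_at, was under the filter at 25.8 to 40.3 on amplified arrays and 19.9 to 36.7 on nonamplified arrays.

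Whether probe sets of one gene differ in their fold change was tested on their difference per array, in a limma fit over all 15113 pairs of tested probe sets with the same gene. All 6 pairs of Hsp90aa1 were called, but 3 of them include 1433251_at, which had to differ, and its pair with 1438902_a_at was not called with array weights per group (limma adjusted p = 0.109). The fold change of 1438902_a_at exceeded that of 1426645_at by 4.31 on the log2 scale (limma, SE 0.20, adjusted p = 2.87e-11). Over the 7 genes 19 of 26 pairs were called (73.1%), against 56.3% of all pairs. A difference of at least 2-fold was called for 14 of the 26, against 44.5% of all pairs. Both counts include called pairs with Hsp90aa1 1433251_at and with Hspa4 1416147_at, and these probe sets had to differ. A scaling that multiplies a whole array cancels in the differences between probe sets, apart from the added 16. The position of each probe set along its transcript was not used here.

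Hspa8, the constitutive Hsp70, was bright on every array at 3 of its 4 probe sets, and these moved in both directions. At 1420623_x_at intensity was 4685 to 6137 on amplified arrays (median 5729) and 8048 to 8439 on nonamplified arrays (median 8308). The groups did not overlap, with a log2 fold change of −0.57 (limma, SE 0.072, adjusted p = 3.30e-06) that was −0.0078 with arrays centred on their medians. At 1420622_a_at amplified arrays read 3697 to 4763 (median 4401) and nonamplified arrays 5512 to 5963 (median 5685), again without overlap, and the log2 fold change of −0.41 (SE 0.072) was 0.15 with arrays centred on their medians. At 1455789_x_at, in contrast, amplified arrays read 9172 to 9944 (median 9556) and nonamplified arrays 7247 to 8063 (median 7850.1). All amplified arrays were higher, by a log2 fold change of 0.30 (limma, SE 0.061, adjusted p = 0.000490), which was −0.28 under quantile normalization and −0.13 when scaled on the hybridization controls. The fold change of 1420623_x_at lay below that of 1455789_x_at by −0.87 (limma, SE 0.089, adjusted p = 3.95e-07). The dimmer 1431182_at fell to 13.2 to 87.7 (median 30.5) on amplified arrays, against 216 to 279 (median 255) on nonamplified arrays (log2 fold change −2.40, SE 0.23, adjusted p = 1.21e-07). Of the 6 pairs of Hspa8 probe sets 5 were called, the exception being 1420623_x_at against 1420622_a_at (difference −0.16, 95% interval −0.33 to 0.010, limma adjusted p = 0.102). That pair differed by a log2 SD of 0.066 over the amplified arrays. A name ending in _x_at or _s_at means, in the maker's scheme, that probes of the set also match other transcripts, and whether such signal was included was not tested.

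**Figure D2:**
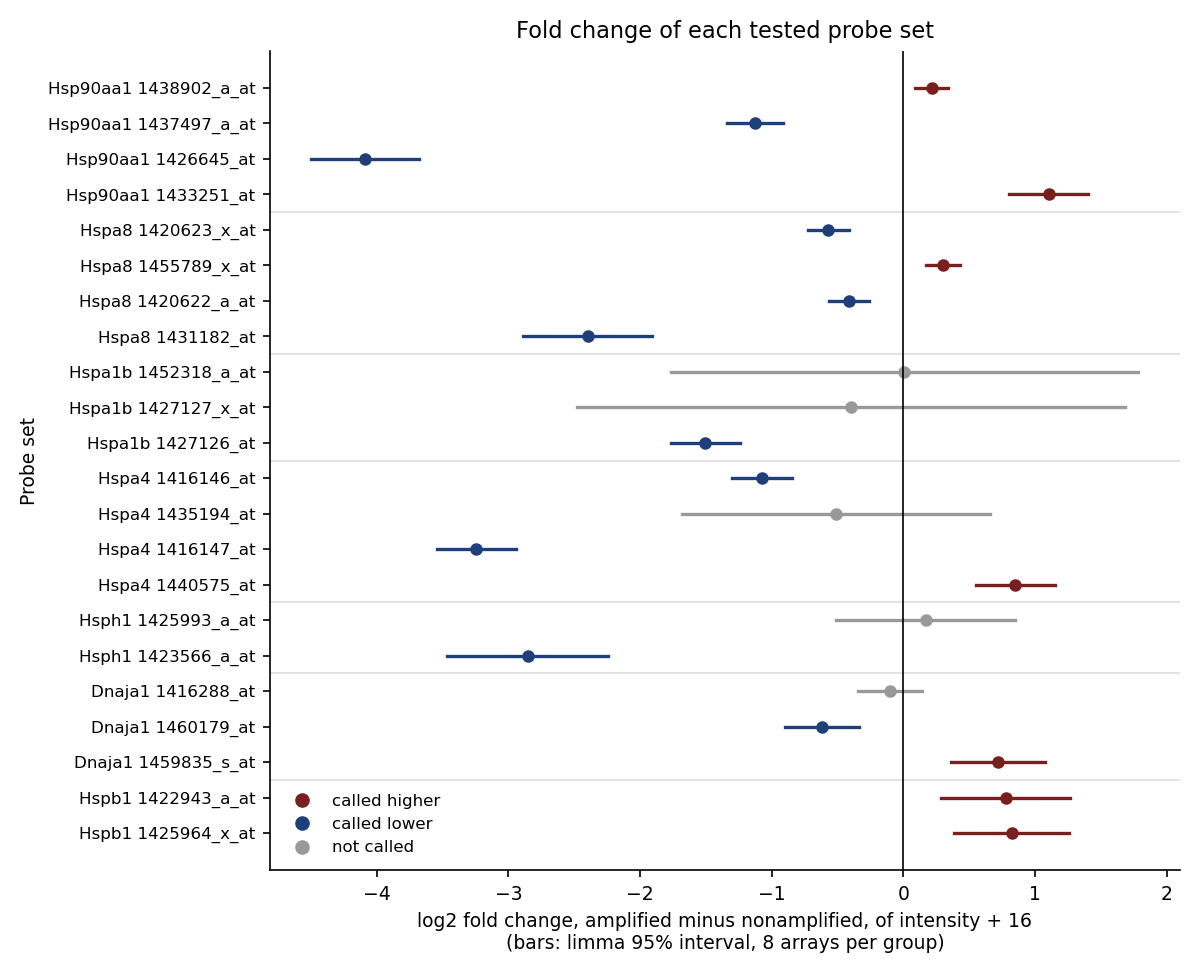
Log2 fold change of intensity + 16 (amplified minus nonamplified) for the 22 tested probe sets, with limma 95% intervals from 8 arrays per group; red is called higher, blue called lower and grey not called. Probe sets of Hsp90aa1 range from −4.09 to 1.11, and the widest intervals belong to 2 probe sets of Hspa1b.

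The stress-inducible Hsp70 genes gave the most uneven readings. Hspa1b at 1452318_a_at read 1057, 1148 and 1956 on amplified arrays 1, 4 and 8, and 19.3 to 47.2 on the other 5 amplified arrays. The 8 nonamplified arrays read 144 to 161. No amplified array thus came near the nonamplified level: 3 lay above its whole range and 5 below it. Its mean was 541 ± 749 (SD, n = 8) on amplified and 152 ± 6.80 (SD, n = 8) on nonamplified arrays. The log2 fold change of 0.0090 has a 95% interval of −1.77 to 1.79 (limma adjusted p = 0.994), so a mean difference was not detectable with this spread. Leaving out amplified array 1, 4 or 8 turned it to −0.37, −0.39 or −0.50, none of them called.

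The probe set 1427127_x_at of Hspa1b gave the same picture. It read 866, 938 and 1623 on amplified arrays 1, 4 and 8, 1.99 to 13.8 on the other 5, and 102 to 124 on nonamplified arrays (log2 fold change −0.39, limma adjusted p = 0.758). The third probe set, 1427126_at, did not follow it: amplified arrays read 7.65 to 28.5 (median 21.3) and nonamplified arrays 72.3 to 93.7 (median 84.1). Arrays 1, 4 and 8 were at 20.5, 7.65 and 16.6 there. All amplified values were under the filter level of 38.5, and it passed through its nonamplified values and so had to differ. Its log2 fold change was −1.50 (SE 0.12), and −2.13 or −0.82 with a pseudocount of 1 or 64. Hspa1a was represented by 1 probe set, 1452388_at, under the filter, with 4.99 to 23.3 (median 12.9) on amplified and 19.3 to 37.5 (median 28.5) on nonamplified arrays. None of the 3 pairs of Hspa1b probe sets was called, and the intervals were wide, such as −0.41 to 3.43 for 1452318_a_at against 1427126_at. The pair 1452318_a_at and 1427127_x_at had a difference of 0.40 (limma adjusted p = 0.0866) that was called without amplified array 1, 4 or 8 (0.48 in each case, limma adjusted p = 0.0414 to 0.0443) and with a pseudocount of 1 (1.12).

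The Hsp110 exchange factors Hspa4 and Hsph1 also split by probe set. Hspa4 at 1416146_at, its brightest without amplification, read 828 to 1485 on amplified arrays (median 1156) and 2214 to 2513 on nonamplified arrays (median 2413). It was lower on every amplified array, with a log2 fold change of −1.07 (limma, SE 0.11, adjusted p = 2.08e-07). At 1435194_at the amplified arrays scattered from 91.8 to 2703 (median 1909) around nonamplified values of 1504 to 1664 (median 1597). Array 2 was the lowest and array 1 the next, at 398. The means were 1610 ± 1005 on amplified and 1595 ± 52.8 on nonamplified arrays (SD, n = 8 each). The log2 fold change of −0.51 was not called (95% interval −1.68 to 0.66, limma adjusted p = 0.453), and it was −0.027 without amplified array 2. Under quantile normalization it was called lower (−1.20, limma adjusted p = 0.0438). On the same arrays 1416146_at had a log2 SD of 0.27, against 1.65 for 1435194_at. Their fold changes did not differ beyond the spread (difference −0.56, 95% interval −1.77 to 0.65, limma adjusted p = 0.425), but were called different without amplified array 2 (−1.07, limma adjusted p = 0.0113).

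The dimmer probe sets of Hspa4 moved apart. At 1416147_at amplified arrays read 15.1 to 38.3 (median 30.1), all under the filter level, and nonamplified arrays 289 to 468 (median 429.7). This probe set passed the filter through its nonamplified values and so had to differ; the log2 fold change was −3.24 (SE 0.14), and since all amplified values lie under the filter level it gives no exact fold. At 1440575_at amplified arrays read 67.2 to 151 (median 109) and nonamplified arrays 44.6 to 60 (median 49.6), without overlap (log2 fold change 0.85, SE 0.14, adjusted p = 6.59e-05). Of the 6 pairs of Hspa4 probe sets 4 were called. All of these but 1416146_at against 1440575_at include 1416147_at, which had to differ. The pair 1435194_at and 1440575_at missed the threshold (difference −1.36, limma adjusted p = 0.0580) and passed it without amplified array 2, 4, 5 or 6 (limma adjusted p = 0.0287 to 0.0419). It also passed with array weights (limma adjusted p = 0.0158), a pseudocount of 1 (0.0435), scaling on the hybridization controls (0.0476) and quantile normalization (a difference of −2.38).

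Hsph1 at 1425993_a_at read 312 to 2259 on amplified arrays (median 1347) and 916 to 1013 on nonamplified arrays (median 978). It was not called (log2 fold change 0.17, 95% interval −0.51 to 0.85, limma adjusted p = 0.679), with 5 amplified arrays above the nonamplified range and 2 below it. At 1423566_a_at amplified arrays read 28.4 to 209 (median 137) and nonamplified arrays 825 to 922 (median 864). All amplified arrays were lower there, with a log2 fold change of −2.85 (limma, SE 0.29, adjusted p = 2.29e-07) and a mean 7.08-fold lower. The fold change of 1425993_a_at exceeded that of 1423566_a_at by 3.02 on the log2 scale (limma, SE 0.13, adjusted p = 1.40e-11).

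Dnaja1, the J protein of the list, changed little at its brightest probe set. At 1416288_at amplified arrays read 1703 to 3186 (median 2806) and nonamplified arrays 2694 to 2920 (median 2839), with overlap and a log2 fold change of −0.099 (95% interval −0.34 to 0.15, limma adjusted p = 0.489). It was called lower under quantile normalization (−0.96) and when scaled on the hybridization controls (−0.53), and called higher with arrays centred on their medians (0.46). At 1460179_at amplified arrays read 437 to 896 (median 630.0) and nonamplified arrays 955 to 1125 (median 986), lower throughout (log2 fold change −0.62, SE 0.13, adjusted p = 0.000730), but with arrays centred on their medians it was −0.067 and not called. At 1459835_s_at amplified arrays read 766 to 2025 (median 1186) and nonamplified arrays 684 to 768 (median 699), so 7 of 8 amplified arrays were higher than every nonamplified one. Its log2 fold change of 0.72 (limma, SE 0.17, adjusted p = 0.00140) did not pass when quantile normalized (0.10) or scaled on the hybridization controls (0.30). All 3 pairs of Dnaja1 probe sets were called, although under quantile normalization 1416288_at against 1460179_at was not (0.28, against 0.52 as deposited).

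Hspb1, the small heat shock protein, was the gene whose tested probe sets were both called higher. At 1422943_a_at amplified arrays read 3045 to 11563 (median 5757) and nonamplified arrays 3668 to 4173 (median 3864). At 1425964_x_at amplified arrays read 3347 to 10858 (median 5718) and nonamplified arrays 3483 to 4001 (median 3755). At either probe set amplified arrays 6, 7 and 8 were the highest, arrays 1, 2, 3 and 5 intermediate, and array 4 below the nonamplified range. The log2 fold changes were 0.78 (limma, SE 0.23, adjusted p = 0.00806) and 0.82 (limma, SE 0.21, adjusted p = 0.00247). They were −0.025 and 0.012 under quantile normalization, and neither was called when scaled on the hybridization controls. They did not differ beyond their spread (difference −0.047, 95% interval −0.22 to 0.12, limma adjusted p = 0.644).

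**Figure D3:**
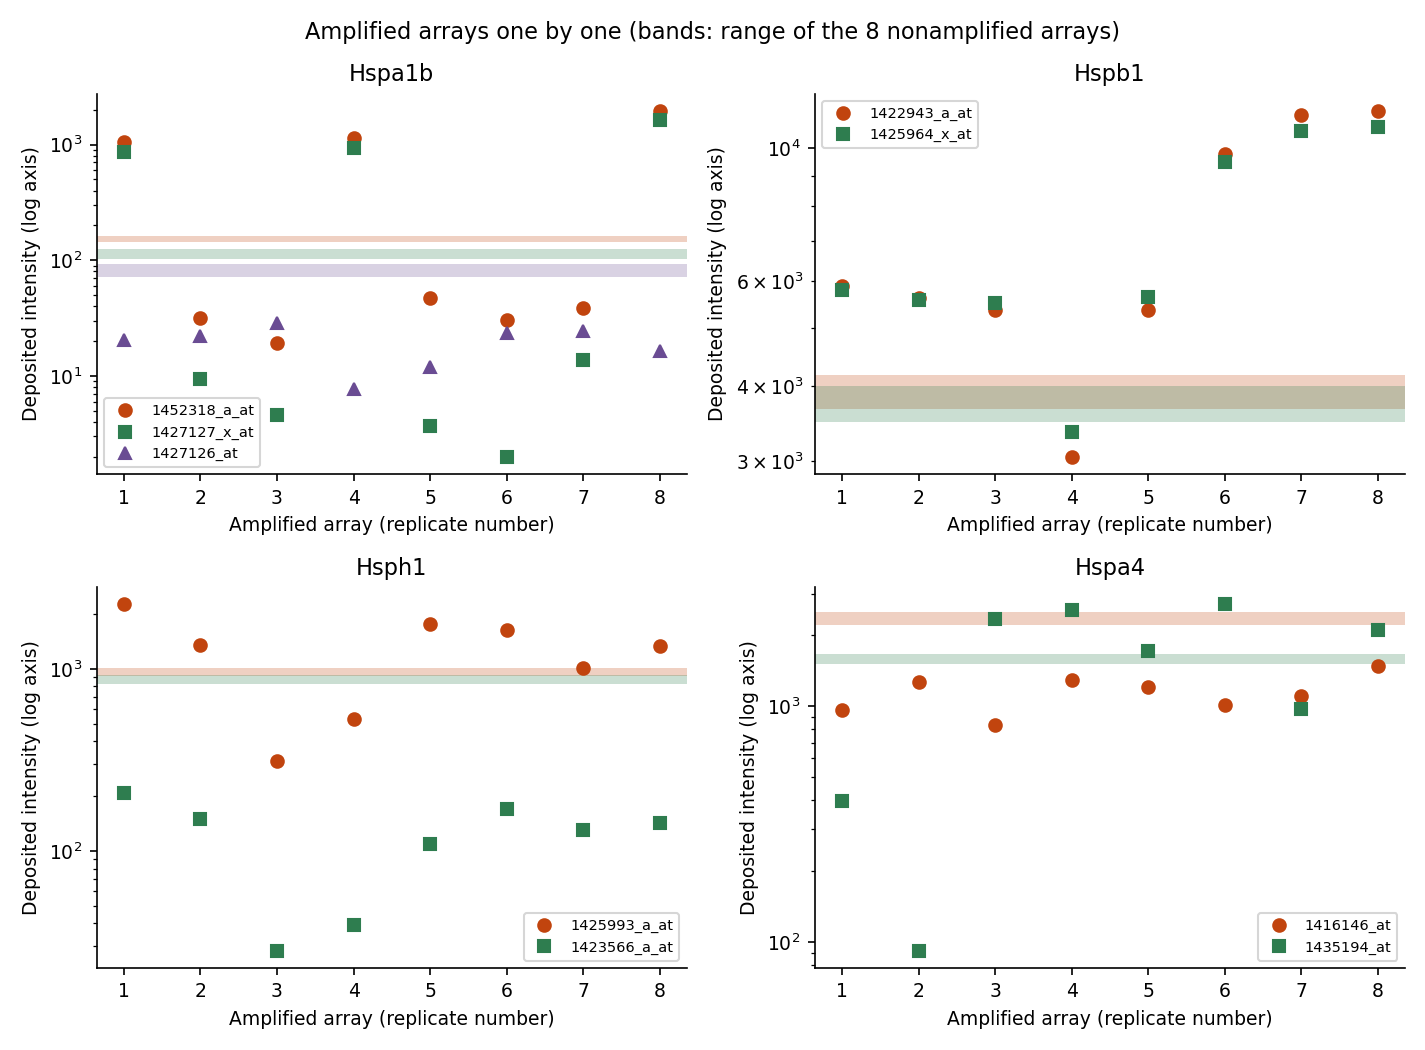
Deposited intensity (log axis) on each of the 8 amplified arrays for probe sets of Hspa1b, Hspb1, Hsph1 and Hspa4, with bands for the range of the 8 nonamplified arrays in the matching colour. Both bright Hspa1b probe sets are high on arrays 1, 4 and 8, both Hspb1 probe sets are high on arrays 6, 7 and 8, and the 2 Hsph1 probe sets are lowest on arrays 3 and 4, whereas the 2 Hspa4 probe sets do not follow each other.

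The amplified arrays that read high or low differed from gene to gene: array 4 was high for Hspa1b and lowest for Hspb1, and array 1 was high for Hspa1b and Hsph1 and low for Hspa4 1435194_at. Over the 22 probe sets the median log2 SD was 0.36 on amplified and 0.060 on nonamplified arrays, against 0.54 and 0.13 over all tested probe sets, which were not matched for intensity. The amplified SD was the larger for 19 of the 22, against 90.8% of the table. It was over 1 for 3, the 2 uneven probe sets of Hspa1b and Hspa4 1435194_at, against 29.2% of the table. On 3 pairs both probe sets had a log2 SD above 0.5, and in each the difference between them varied less than either. For Hspa1b the SD of the difference was 0.53, against 2.51 and 2.94 for 1452318_a_at and 1427127_x_at. For Hspb1 it was 0.079, against 0.66 and 0.59. For Hsph1 it was 0.32, against 0.94 and 0.85. Over the whole table this held for 26.7% of 5572 such pairs. Probe sets of one gene can share probes or overlapping target sequence, and the part of this in their common pattern was not tested.

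Loss of signal on single arrays was counted as a dropout, that is, a value under the 25th percentile of its array at a probe set whose nonamplified mean ranks in the upper 50%. Of the 20 heat shock protein probe sets in that upper range, 3 (15%) dropped out on at least 1 amplified array, against 37.8% over all such probe sets. These shares were not matched for intensity, so they do not show that the list is lost less often than equally bright probe sets. Hspa1b 1427127_x_at dropped out on 5 amplified arrays, Hspa1b 1427126_at on 2 and Hspa8 1431182_at on 1, and none dropped out on a nonamplified array. The nonamplified means of the 3 Hspa1b probe sets were 82.7 to 152, the lowest of the 7 tested genes by their brightest probe set.

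Of the other genes of the chaperone network, 48 were tested with 1 probe set each, that of the highest nonamplified mean, and 10 were higher, 16 lower and 22 not called. Over all 13641 genes chosen the same way 54.1% were called, 23.8% higher and 30.3% lower. The median log2 fold change was −0.30 for the network and −0.17 for all genes. The counts turned to 16 higher and 9 lower with arrays centred on their medians and to 3 and 25 when scaled on the hybridization controls, so their direction depends on the scaling. It also depends on the probe set: taking that of the highest mean over all 16 arrays gave 13 higher and 11 lower. Of the calls, 3 higher (Cryab, Hsf4 and Hsf2) and 4 lower (Dnajb5, Bag3, Bag4 and Hspb2) are of genes whose mean in 1 group was under the filter, so that they had to differ.

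Among 12 tested J proteins other than Dnaja1, 1 was higher and 6 lower, and the median was −0.65 on the log2 scale. Dnajc8, a nuclear J protein and the brightest of them, had a mean of 3128 ± 551 on amplified and 1724 ± 56.6 on nonamplified arrays (SD, n = 8 each). Its log2 fold change of 0.83 (limma, SE 0.11, adjusted p = 3.40e-06) was 0.0051 under quantile normalization, and its other probe set had 0.041 and was not called (limma adjusted p = 0.808). Dnajc21, which acts in ribosome maturation, had the largest change at 1457281_at, with 17.4 to 294 on amplified (median 32.7) and 699 to 791 on nonamplified arrays (median 738). Its log2 fold change was −3.72 (limma, SE 0.35, adjusted p = 9.87e-08). Of the other tested probe sets of Dnajc21, 1460711_at was not called (−0.30, limma adjusted p = 0.295), 1420220_x_at was lower (−1.64) and 1420219_at was higher (2.05). The last averaged 86.3 on amplified and 5.95 on nonamplified arrays. It passed the filter through its amplified values and so had to differ.

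Among 14 tested co-chaperones of Hsp90, 3 were higher, 4 lower and 7 not called, with a median of −0.19. Stip1, the adaptor that joins Hsp70 to Hsp90, averaged 1380 ± 328 on amplified and 2045 ± 92.8 on nonamplified arrays (SD, n = 8 each). All its amplified values were lower, with a log2 fold change of −0.60 (limma, SE 0.13, adjusted p = 0.000758) that was −0.039 with arrays centred on their medians. Fkbp5, an immunophilin of steroid receptor complexes, averaged 344 ± 149 on amplified and 801 ± 21.3 on nonamplified arrays (SD, n = 8 each; log2 fold change −1.30, SE 0.22), and its other tested probe set had −3.03. Among 10 exchange factors and co-chaperones of Hsp70, 1 was higher and 2 lower, with a median of 0.0013. St13, which stabilises the ADP state of Hsp70, averaged 2800 ± 617 on amplified and 2248 ± 112 on nonamplified arrays (SD, n = 8 each). Its log2 fold change of 0.28 was not called (limma adjusted p = 0.0667), but was without amplified array 1 or 7 (0.34 and 0.36), with a robust intensity trend (limma adjusted p = 0.0477) and with arrays centred on their medians (0.84), and it was lower under quantile normalization (−0.57). Its other probe sets had −3.02 and −0.70. Bag4, a BAG domain exchange factor, averaged 32.3 ± 14.1 on amplified and 190.4 ± 37.8 on nonamplified arrays (SD, n = 8 each; log2 fold change −2.12, SE 0.17), and its other probe sets had −1.33 and −1.62.

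Among 4 tested Hsp70-related genes outside the list, 2 were higher and none lower. Hspa14, a ribosome-associated Hsp70, averaged 1317 ± 319 on amplified and 875 ± 41.3 on nonamplified arrays (SD, n = 8 each; log2 fold change 0.55, −0.13 under quantile normalization). Its other probe sets had 1.34 and 0.25, the latter not called. Hspa12a, a distant Hsp70 relative, averaged 737 ± 191 on amplified and 164 ± 49.5 on nonamplified arrays (SD, n = 8 each; log2 fold change 2.07). For the same gene 1447222_at averaged 97.4 on amplified and 14.5 on nonamplified arrays (1.93). It passed the filter through its amplified values and so had to differ. The dim 1430040_at and 1434051_s_at were under the filter and read lower after amplification, at 14.7 against 29.4 and 5.40 against 28.8. At 1434051_s_at 4 amplified arrays were at the floor. Among 4 other small heat shock proteins 1 was higher and 3 lower. Hspb8, a partner of Bag3, averaged 91.7 ± 18.8 on amplified and 118 ± 11.8 on nonamplified arrays (SD, n = 8 each; log2 fold change −0.33, 0.15 with arrays centred on their medians). Its other probe sets had −0.53, with an amplified mean under the filter, and −0.13, which was not called. Cryab, the crystallin relative of Hspb1, averaged 70.8 ± 10.9 on amplified and 22.5 ± 8.28 on nonamplified arrays (SD, n = 8 each; log2 fold change 1.19), and passed the filter through its amplified values. So did its other tested probe set (2.65), while that under the filter averaged 5.81 on amplified and 11.8 on nonamplified arrays. Of 4 heat shock factors and regulators Hsbp1 was lower and Hsf4 and Hsf2 were higher, and both of the higher ones passed the filter through amplified values alone, so those calls are not a result. Hsbp1, which binds the trimer of Hsf1, averaged 463 ± 178 on amplified and 668 ± 24.7 on nonamplified arrays (SD, n = 8 each; log2 fold change −0.60, −0.054 with arrays centred on their medians). Its other probe set had −1.97, with 4 amplified arrays at the floor. Hsf4, a factor of lens development, read 145 to 228 on amplified arrays and was listed at the table's floor of 1 on 6 of 8 nonamplified arrays, with a highest value of 2.82 there.

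**Figure D4:**
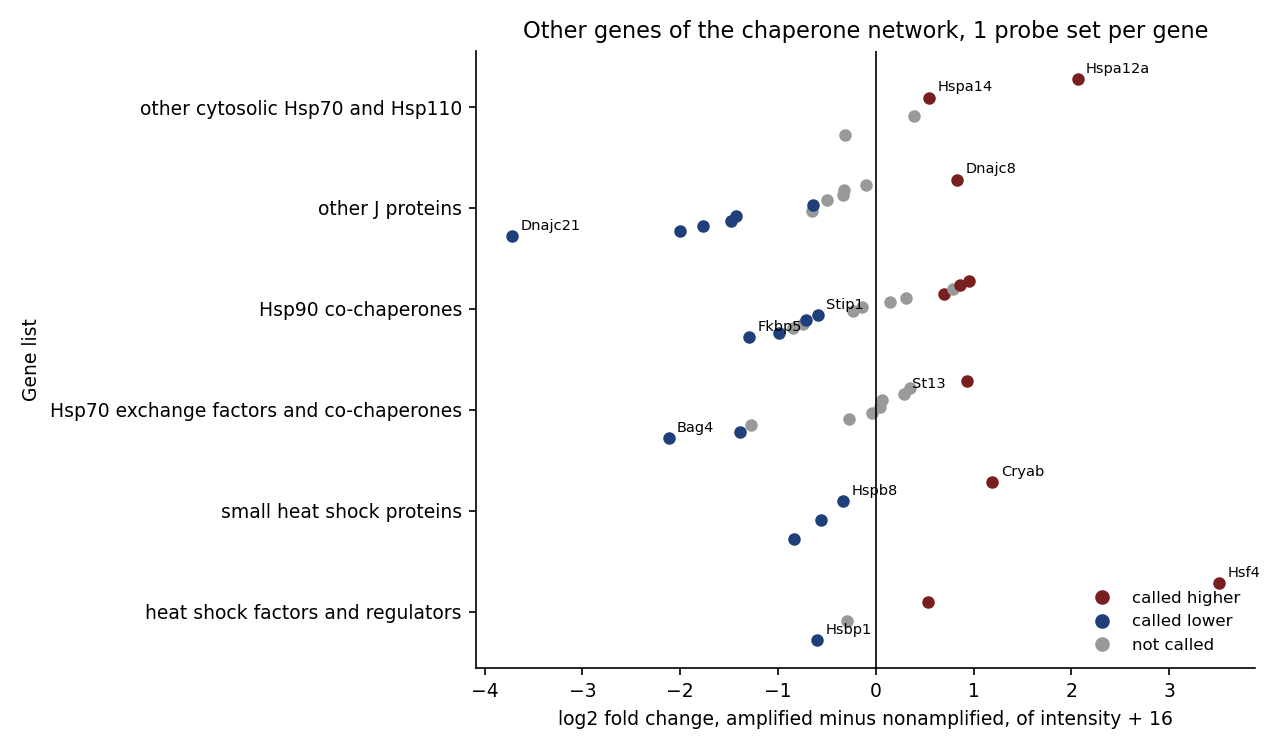
Log2 fold change of intensity + 16 (amplified minus nonamplified) for 48 other chaperone network genes, 1 probe set per gene, by gene list; red is called higher, blue called lower and grey not called. Named are the brightest gene without amplification and the called gene of largest change in each list. Dnajc21 lies at −3.72, and the place of Hsf4 has no exact meaning, since its nonamplified values are at or near the floor of 1 and the added 16 sets the difference.

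Genes whose profile over the 16 arrays was most like that of Hspa8 and Hsp90aa1 were sought among the 6756 tested probe sets in the top 25% of the nonamplified mean. Likeness was the root mean square difference of log2 values after subtracting each probe set's own mean, so a shared shift between the groups counts towards it. Nearest to Hspa8 1420623_x_at were Slc25a5, a mitochondrial ADP/ATP carrier, at 0.051, Hnrnpk, an RNA-binding protein, at 0.073, and the ribosomal protein gene Rpl7 at 0.10. Nearest to Hsp90aa1 1438902_a_at were Btf3, a subunit of the nascent chain complex, at 0.064, Hspa8 itself through 1455789_x_at at 0.065, and Ldha, lactate dehydrogenase A, at 0.065.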

How the data were processed

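Expression was measured on 16 Affymetrix arrays in 2 groups taken from the sample titles. Biotinylated cRNA was made with the one-cycle assay, per the labels' protocols. The deposited table holds 1 linear intensity per probe set and array, with a lowest value of 1; how probes were summarised and arrays scaled is not given in the sources used here. Values were used as deposited, and precision is limited by how many arrays there are. Of 45101 probe sets 64 controls were left out. Names came from the platform annotation, updated through gene identifiers of RefSeq GRCm38.p6; 34945 probe sets had 1 symbol (34741 matched RefSeq), 932 several and 9160 none.

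Values were transformed as log2(intensity + 16) and fitted per probe set in limma 3.58.1 (R 4.3.3; lmFit, eBayes). Tests were 2-sided and had no covariate, and p-values were adjusted by Benjamini-Hochberg over all tested probe sets or same-gene pairs. In a pair, the probe set with the higher nonamplified mean stands first. Scaling alternatives multiply the intensities before the log and keep the same tested probe sets; leaving out an array does too. The probe set fit was also run on simulated normal values. That outcome is not given here and is not used as support for any call. Figures were drawn with matplotlib 3.10.9.

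The members, lists and tests were chosen with earlier results of these data known. Values by array are given for the brightest probe set of each member and each other one called at 2-fold or more; the rest are given too. In each network list the brightest gene without amplification and the called gene of largest change are named. As alternatives, arrays were quantile normalized, centred on medians or scaled on 18 hybridization control probe sets, the pseudocount was 1 or 64, and the filter was dropped or raised to the 60th percentile. Others were a robust intensity trend, array weights per group, a block for the replicate number, the probe set of the highest overall mean, leaving out _x_at and _s_at probe sets, a 10th percentile for dropouts and leaving out each array.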

Additional observations from a re-analysis of the deposited data

Results flagged for a closer look

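In 2 of 68 groups of 8 arrays tested for the named probe sets, 1 array stood apart from the other 7 on the log2(intensity + 16) scale by Dixon's criterion; chance gives about 1 in 20 groups. Dnajc21 1457281_at read 294 on amplified array 1, against 17.4 to 53.7 on the other amplified arrays. Dnaja1 1460179_at read 1125 on nonamplified array 2, against 955 to 1028 on the other nonamplified arrays.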

How the results depend on the processing

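Leaving out each array in turn gave 17 called heat shock protein probe sets, 7 higher and 10 lower, and gave 19 to 21 called pairs. Over all probe sets 14981 to 15923 were called, over all pairs 8103 to 8670, and in the network lists 8 to 13 higher and 16 to 18 lower. With the stricter filter, at the 60th percentile, fewer were tested and 10146 probe sets and 5126 pairs called, and no filter called 15771 pairs. Without a filter Hspa1a was called lower (log2 fold change −0.59, limma adjusted p = 0.00286). Higher calls among the 22 numbered 2 under quantile normalization, 2 when scaled on the hybridization controls and 4 without _x_at and _s_at probe sets. Network calls were 16 higher and 9 lower with arrays centred on their medians, and 3 and 25 when scaled on the hybridization controls. With the 10th percentile 1 probe set of the list had a dropout.

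Directions turned in these cases, and the cause was not tested. With arrays centred on their medians they were Dnaja1 1416288_at (0.46), Hspa1b 1427127_x_at (0.0061), Hspa4 1435194_at (0.040), Hspa8 1420622_a_at (0.15) and Hspb8 (0.15). Under quantile normalization they were Hsp90aa1 1438902_a_at (−0.38), Hspa8 1455789_x_at (−0.28), Hspb1 1422943_a_at (−0.025), Hsph1 1425993_a_at (−0.50), Hspa14 (−0.13) and St13 (−0.57). Scaled on the hybridization controls they were Hsp90aa1 1438902_a_at (−0.21), Hspa1b 1452318_a_at (−0.34), Hspa8 1455789_x_at (−0.13), Hsph1 1425993_a_at (−0.25) and St13 (−0.14). Hspa1b 1452318_a_at was −0.21 with a pseudocount of 1, −0.37, −0.39 and −0.50 without amplified replicates 1, 4 and 8 (range −0.50 to 0.33 over all arrays left out in turn), and −0.0013 without nonamplified replicate 5; Hspa1b 1427127_x_at was 0.20 with a pseudocount of 64. With array weights per group Hsp90aa1 1438902_a_at did not pass (limma adjusted p = 0.0985). The median log2 fold change of all tested probe sets was −0.067 under quantile normalization, 0.26 with centring and −0.54 when scaled on the controls, and 42.5% of calls were higher as deposited, 49.0%, 63.7% and 24.9% under these 3.

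Pairing of the arrays by replicate number was weak at most: deviations of same-numbered arrays correlated at −0.0083 to 0.020. With the replicate number as a block, 17 heat shock protein probe sets, 19 pairs and 15028 probe sets in all were called, and 4 of 8 amplified arrays correlated best with their own number.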
